A study of Mus musculus with 4 samples.

Results

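The heat shock, DNAJ and CCT chaperone genes were examined in mouse T helper 17 (Th17) cells, the CD4 T cells that secrete IL-17A and IL-17F. Members were the protein-coding genes whose GENCODE symbol begins with Hspa, Hspb, Hspd, Hspe, Hsph, Dnaja, Dnajb, Dnajc or Cct followed by a digit, or with Hsp90, together with Tcp1. The rule uses names alone and gave 81 genes among 50600 in the count tables, of which 21764 are typed as protein-coding. They comprised 3 Hsp90 genes, 11 Hsp70 genes, 3 Hsp110 genes, 2 genes of the mitochondrial chaperonin, 8 small heat shock protein genes, 4 Dnaja, 13 Dnajb and 28 Dnajc genes, 7 subunit genes of the CCT ring and 2 further Cct genes. Cct6a, the remaining ring subunit, is typed as a processed transcript in the annotation release used for names, so it is not a member, and its values are given to complete the ring.

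All 4 libraries belong to 1 group: Th17 primary cells of strain C57BL/6NJ, made by differentiation of CD4 T cells, with no treatment, allele or control group in the labels. Age is given as unknown and sex as not collected, and all 4 carry the same donor entry although they are numbered as biological replicates 1 to 4. The assay is labelled total RNA-seq, while the linked library protocol names poly(A) RNA, and the table headers name a 24 hr sample. With 1 group, the data give levels, differences between genes within a library and the spread between libraries, and no effect of differentiation or stress can be read from them. P-values measure only the spread between these 4 libraries.

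Total counts were 41360302, 19332509, 34979616 and 48558772 in replicates 1 to 4, and no pair of libraries agreed within counting noise (chi-square per degree of freedom 4.36 to 11.4). The 6 Th17 markers were each called above 1 TPM, with summed levels of 574 to 769 TPM, and so were the 5 protein-coding T cell markers. Of the Th17 markers, Il17f was called as varying between libraries (adjusted p = 2.14e-06, edgeR dispersion trend). It was at 557, 391, 501 and 521 TPM in replicates 1 to 4. TPM is a level in which each gene's count is divided by its exon length and scaled to the same total in every library. Summed markers of CD8 T and NK cells reached at most 2.37 TPM, those of B cells 0.991 TPM and those of stromal and epithelial cells 0.480 TPM. The 3 neutrophil markers had no count, and macrophage and erythroid sums stayed at or below 0.225 TPM. Replicates 1 and 2 stood apart from replicates 3 and 4 in sex chromosome genes: Ddx3y, on the Y chromosome, was at 77.8, 58.9, 0.240 and 0.0925 TPM, and Xist, transcribed from the inactive X, was at 0.916, 1.01, 154 and 152 TPM. These values go against the single donor entry, and the spread over the 4 libraries includes this difference. In bulk RNA, fewer cells of a type and less RNA per cell cannot be told apart.

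Chaperones bind proteins that are unfolded, newly made or not yet assembled, and let them fold without aggregating. Hsp70 works through cycles of ATP hydrolysis that J-domain proteins, encoded by the Dnaj genes, start by stimulating its ATPase, and that nucleotide exchange factors, the Hsp110 proteins among them, reset. Hsp90 takes over partly folded clients such as kinases and steroid receptors, the CCT ring folds actin and tubulin in a closed chamber, and the mitochondrial chaperonin of Hsp60 and Hsp10 does so for imported proteins. Heat shock factor 1 drives many of these genes by binding repeats of the bases GAA in alternating orientation, and many others are transcribed in all growing cells.

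Of the 81 chaperone genes, 61 were called above 1 TPM and 19 below it, and 1 passed in neither direction (edgeR quasi-likelihood F test of the level, Benjamini-Hochberg adjustment over all protein-coding genes, threshold 0.05). Over all 21764 protein-coding genes, 45.9% were called above and 51.5% below. The members' counts made up 2.90% to 2.99% of each library's total, and their summed level was 28274 ± 464 TPM (SD, n = 4). The median member was at 21.9 TPM, against 0.411 TPM for all protein-coding genes. A mean of at least 100 TPM was reached by 26 members (32.1%), against 9.40% of protein-coding genes. Ranked by mean TPM among protein-coding genes, 7 members were in the top 100 and 17 in the top 500. With DESeq2's Wald test, 57 members were above and 1 below among the 71 that it gave a p, beside 67.9% above and 8.42% below of the genes it tested. The 10 members with no count have no DESeq2 p. All 57 calls above by DESeq2 are among the 61 by edgeR.

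**Figure D1:**
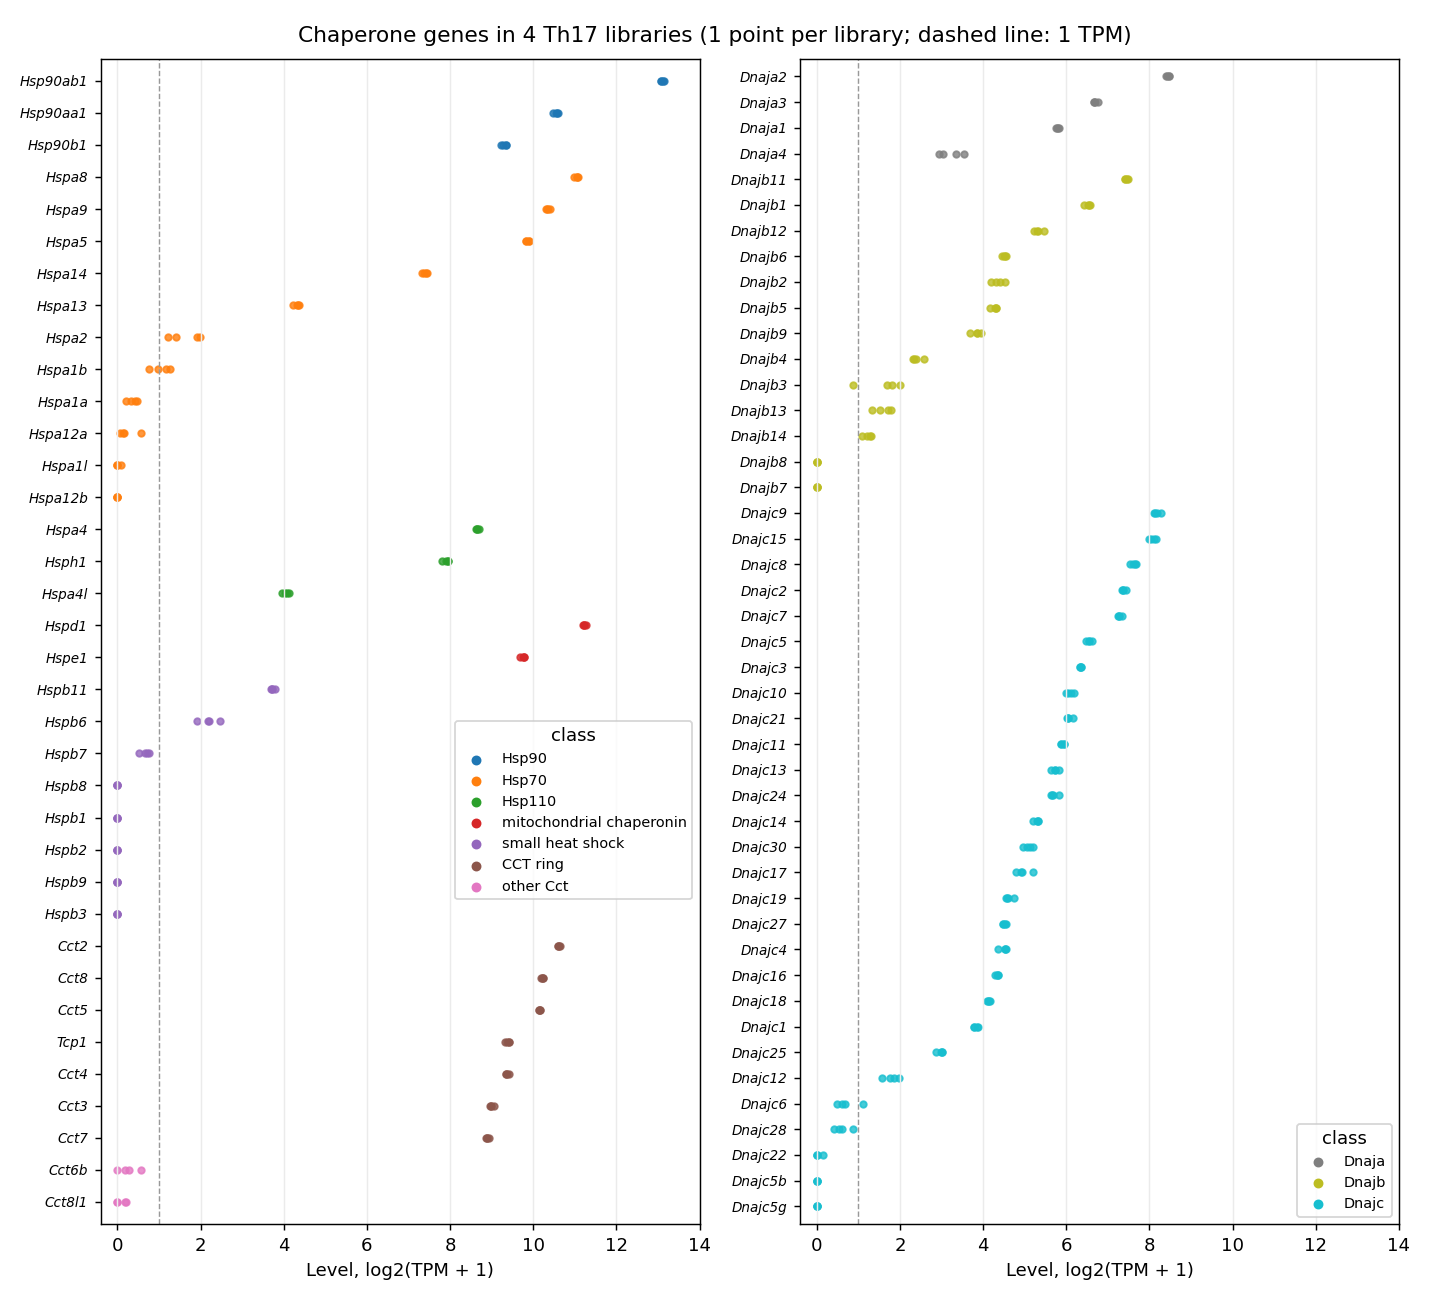
Level of each of the 81 chaperone genes in each of the 4 Th17 libraries, on a log2(TPM + 1) scale, with genes ordered by mean within their class and 1 point per library. Hsp90ab1 lies highest, the 7 CCT ring members lie close together, and 5 of the 8 small heat shock genes lie at 0.

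Among the members, Hsp90ab1 had the highest level. Hsp90ab1 (ENSMUSG00000023944.14, mm10 chr17:45567775-45573271, minus strand), the constitutive cytosolic form, was at 8970, 8642, 8984 and 8651 TPM in replicates 1 to 4, and its mean ranked 3 among all protein-coding genes. Hsp90aa1 (ENSMUSG00000021270.13, mm10 chr12:110690605-110702728, minus strand), the heat inducible cytosolic form, was at 1538, 1423, 1513 and 1502 TPM. Hsp90b1, the form of the endoplasmic reticulum (ER), was at 649, 600, 650 and 622 TPM. The ranges of the 3 genes did not overlap, and Hsp90ab1 alone made up 80.6% of the class sum of 10936 ± 254 TPM (SD, n = 4).

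Within each library Hsp90ab1 exceeded Hsp90aa1 by 2.54, 2.60, 2.57 and 2.53 on the log2(TPM + 1) scale, a mean of 2.56 ± 0.03 (SD, n = 4) and a 5.90-fold ratio of mean TPM. The exact two-sided sign-flip test over 4 libraries cannot go below p = 0.125, and that value was obtained here, also after adjustment over 14 pairs. All other pairs below kept 1 sign in all 4 libraries and have the same p, so none can pass a threshold of 0.05. The level of Hsp90aa1 is uncertain: 47.5% of the 50-base words in its transcripts also occur in other genes, chiefly Gm12346, and reads that map to several places were not counted. For Hsp90ab1 this share was 3.44%. The difference was 1.68 (log2) with the length of unshared words.

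Genes of the proteins that work with Hsp90 were present throughout. All 14 listed co-chaperones were called above 1 TPM, beside 45.9% of all protein-coding genes (edgeR). The highest was Stip1, the adaptor that links Hsp70 to Hsp90, at 957, 948, 999 and 1006 TPM. Ahsa1, which stimulates the ATPase of Hsp90, was at 804 ± 19.9 TPM (SD, n = 4), and Fkbp4, an immunophilin of steroid receptor complexes, at 672 ± 11.7. Cdc37, which delivers kinases to Hsp90, was at 112 ± 3.11 TPM. The lowest was Aarsd1, at 4.33, 3.74, 4.60 and 3.85 TPM, with 39.8% of its words shared, mostly with Gm27029. None of the 14 was called as varying between libraries, but only 0.501% of protein-coding genes were, so this says little about the list.

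The Hsp70 genes divided by compartment, and the constitutive member of each compartment was high. Hspa8 (ENSMUSG00000015656.17, mm10 chr9:40800984-40810087, plus strand), the cytosolic Hsc70, was at 2125, 2015, 2172 and 2119 TPM. Hspa9, the mitochondrial Hsp70 that also drives protein import, was at 1351, 1293, 1315 and 1263 TPM. Hspa5 (ENSMUSG00000026864.13), the ER form known as BiP, was at 954, 913, 948 and 913 TPM. The 3 ranges did not overlap, and the class sum was 4535 ± 107 TPM (SD, n = 4), of which Hspa8 was 46.5%. Hspa9 exceeded Hspa5 by 0.49 ± 0.02 on the log2(TPM + 1) scale, a 1.4-fold ratio. Other genes, chiefly Gm15459, share 39.4% of the words of Hspa8, so its level is uncertain.

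Hspa14, a ribosome-associated Hsp70, was at 170, 160, 164 and 174 TPM, and Hspa13, a microsomal member, at 18.9 ± 0.913 TPM (SD, n = 4). Hspa2, best known from the testis, was at 2.98, 2.74, 1.67 and 1.32 TPM and was called above 1 TPM (adjusted p = 1.74e-11, edgeR). DESeq2 did not make that call (adjusted p = 0.0769). Hspa8 exceeded Hspa2 by 9.41 ± 0.40 (log2, SD, n = 4), a 967-fold ratio, and by 10.13 with the length of unshared words. Hspa12a was at 0.487, 0.121, 0.101 and 0.0479 TPM and Hspa1l at 0.0664 TPM in replicate 1 and at 0 in the others. Both were called below 1 TPM by edgeR, and by DESeq2 only Hspa1l (adjusted p = 0.0278, against 0.212 for Hspa12a). The level of Hspa1l is uncertain, because 71.4% of its words also occur in other genes, chiefly Gm10501, and multi-mapping reads were not counted. The lowest was Hspa12b, with no count in any library, which allows a level of up to 0.0190 TPM (3 counts over the 4 libraries, counting error only).

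In the ER, Hspa5 and Hsp90b1 work together on secreted and membrane proteins, and Hspa5 was higher in every library, by 0.55, 0.60, 0.54 and 0.55 on the log2(TPM + 1) scale (1.48-fold). The difference was 0.42 (log2) with the length of unshared words. With the length of 1 transcript per gene it was 0.25, from 697 against 585 TPM. The J-domain partners of Hspa5 were also present. Dnajb11 was at 169, 174, 179 and 169 TPM. Dnajc3, an ER co-chaperone of Hspa5, was at 80.1, 80.5, 79.2 and 80.2 TPM, and Dnajc10, an ER disulfide reductase, at 71.8, 62.3, 64.6 and 68.4. Dnajb9 was at 13.3 ± 1.07 TPM (SD, n = 4). Of the ER nucleotide exchange factors, Hyou1 was at 157 ± 5.79 TPM and Sil1 at 27.5 ± 3.17. Promoter windows were read from RefSeq (GRCm38.p6, 300 bases around each transcript start), which held windows for 66 of the 81 members. The ER stress element, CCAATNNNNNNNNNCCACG or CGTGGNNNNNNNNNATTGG on the other strand, occurs in 0.137% of 27025 genes. Among the 66 it was found in 3 members, Hspa5, Hsp90b1 and Dnajc3, all of the ER. The windows of Dnajb11, Dnajc10 and Dnajb9 did not hold these letters. The matches are shown, so that the 3 promoters can be compared, with the match in capitals, 5′ to 3′ on the strand of the gene. A match describes the letters only and not a bound site.

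Hspa5, chr2:34772020-34772049, plus strand: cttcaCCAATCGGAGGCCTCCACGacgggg
Hsp90b1, chr10:86705632-86705661, minus strand: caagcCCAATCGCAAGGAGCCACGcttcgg
Hsp90b1, chr10:86705527-86705556, minus strand: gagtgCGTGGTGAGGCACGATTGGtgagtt
Dnajc3, chr14:118937822-118937851, plus strand: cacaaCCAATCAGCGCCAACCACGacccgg

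The match in Hspa5 spans bases -65 to -47 from its start and that in Dnajc3 bases -105 to -87. Hsp90b1 holds 1 match on each strand, at -212 to -194 and at -107 to -89.

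The members listed as heat inducible fell into separate groups by level. The list includes Hspa8, which is mainly constitutive. Of its 10 members, 7 were called above 1 TPM, 2 below and 1 in neither direction (edgeR). The shares over all protein-coding genes were 45.9% above and 51.5% below. Hspa1b and Hspa1a, neighbouring genes for the classical inducible Hsp70, were near or under 1 TPM. Hspa1b (ENSMUSG00000090877.3, mm10 chr17:34956436-34959238, minus strand) was at 0.703, 1.23, 0.960 and 1.396 TPM, from 24, 20, 28 and 57 counts (adjusted p = 0.663 against 1 TPM, edgeR). Hspa1a (ENSMUSG00000091971.3, mm10 chr17:34969190-34972156, minus strand) was at 0.387, 0.349, 0.259 and 0.162 TPM, from 14, 6, 8 and 7 counts (adjusted p = 5.62e-05, edgeR). DESeq2 did not call Hspa1a below 1 TPM (adjusted p = 0.252). Hspa1b was above Hspa1a in every library, by 0.30 to 1.04 on the log2(TPM + 1) scale. Hspb1, the inducible small heat shock protein, had no count in any library, which allows up to 0.0678 TPM by its full exon length.

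The 2 Hsp70 copies are nearly the same sequence, and reads that fit both were not counted. Of the words in Hspa1a transcripts, 66.3% are shared, 58.8% with Hspa1b, and of those in Hspa1b 62.3% are in Hspa1a. When exon length was reduced to the unshared words, Hspa1b was called above 1 TPM (adjusted p = 7.15e-12, edgeR) and Hspa1a was no longer called below it (adjusted p = 0.560, edgeR). With the length of 1 transcript per gene, Hspa1b was instead called below 1 TPM (adjusted p = 0.0154, edgeR), so its side of that level depends on the length used. Hspb1 shares 50.1% of its words, chiefly with Hsp25-ps1, so the limit given for it from full exon length is too low. Hspa8 exceeded Hspa1a by 10.68 ± 0.14 on the log2(TPM + 1) scale (SD, n = 4), a ratio of 7280-fold in TPM between 2 genes whose levels are both uncertain.

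The other listed members were all above 50 TPM. Hspd1, Hspa8, Hsp90aa1 and Hspe1 were the highest. Hsph1, an Hsp110, was at 245, 224, 246 and 238 TPM. Dnajb1, the main stress-inducible J protein, was at 92.6, 85.5, 91.1 and 93.7 TPM, and Dnaja1, a farnesylated J protein, at 53.8, 53.3, 56.0 and 55.2 TPM. None of these overlapped the range of Hspa1a or Hspa1b. Of 4 listed regulators, Hsf1, the main heat shock factor, was highest at 141, 131, 133 and 140 TPM, Hsbp1, which binds it, was at 84.5 ± 4.99 TPM (SD, n = 4), and Hsf2 at 12.4 ± 0.734 TPM. Hsf4, best known from the lens, was lowest at 0.234, 0.394, 0.219 and 0.235 TPM and was the only 1 of the 4 called below 1 TPM by edgeR. That call rests on 5, 4, 4 and 6 counts, and DESeq2 did not make it (adjusted p = 0.247).

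**Figure D2:**
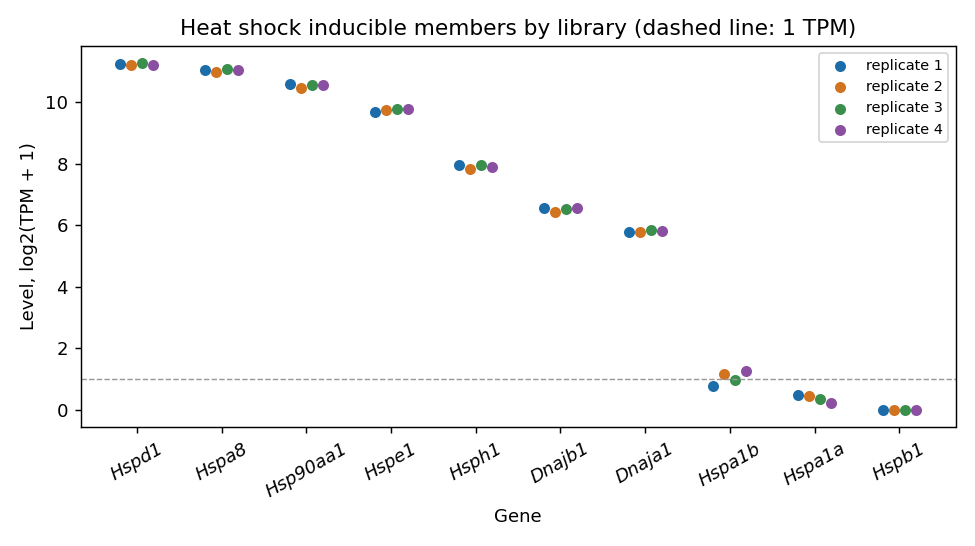
Levels of the 10 heat shock inducible members on a log2(TPM + 1) scale, with 1 point per library. Hspd1 to Dnaja1 lie far above the dashed line at 1 TPM in all 4 libraries, Hspa1b lies on both sides of it, Hspa1a lies below it and Hspb1 had no count.

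The heat shock element was searched in the same promoter windows. Hsp90aa1, Hsp90ab1 and Hspa8 are among the members without a window, so their promoters were not searched. As 3 units, GAANNTTCNNGAA or TTCNNGAANNTTC on the other strand, it occurs in 0.662% of genes and in 4 of the 66 members with a window (6.06%), Dnajb6, Hspd1, Hspe1 and Hsph1. As 2 units in either order, GAANNTTC or TTCNNGAA, which also counts every 3-unit match, it occurs in 17.0% of genes and in 19 members (28.8%). Those include Hspa1a, Hspa1b, Hspb1 and Dnaja1, so a match was present both in members above 50 TPM and in members near or at 0. Sites of inducible genes and of Dnajb6 are shown because their levels differ so widely, with the repeats in capitals, 5′ to 3′ on the strand of the gene.

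Hspe1, chr1:55088053-55088082, plus strand: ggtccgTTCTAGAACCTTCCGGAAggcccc
Hspd1, chr1:55088053-55088082, minus strand: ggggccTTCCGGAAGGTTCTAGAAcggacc
Hsph1, chr5:149636279-149636308, minus strand: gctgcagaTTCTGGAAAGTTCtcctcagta
Dnajb6, chr5:29735844-29735873, plus strand: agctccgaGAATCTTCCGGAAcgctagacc
Dnaja1, chr4:40722333-40722362, plus strand: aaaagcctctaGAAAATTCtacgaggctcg
Hspa1a, chr17:34972242-34972271, minus strand: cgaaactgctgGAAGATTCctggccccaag
Hspa1b, chr17:34959324-34959353, minus strand: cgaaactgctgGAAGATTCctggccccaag
Hspb1, chr5:135887791-135887820, plus strand: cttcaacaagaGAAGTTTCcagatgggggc

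Hspa1a and Hspa1b carry the same letters at the same place, -104 to -97 from the start, and their 300-base windows are identical at 296 bases (98.7%). The site shown for Hsph1 lies after its start, at bases 16 to 28 or 37 to 49, depending on the RefSeq start. A 2-unit match of Hsph1, not shown, lies before it, at -54 to -47 or -33 to -26. Hspb1 holds another 2-unit match, not shown, at -97 to -90. The 4 units of Hspd1 and Hspe1 are a single stretch read on both strands, at -144 to -127 from the Hspd1 start and -89 to -72 from the Hspe1 start.

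That stretch lies between the mitochondrial chaperonin genes, which are transcribed away from each other from RefSeq starts 216 bases apart. Hspd1 (ENSMUSG00000025980.14, mm10 chr1:55077835-55088243, minus strand), which encodes Hsp60, was at 2404, 2350, 2458 and 2383 TPM. Hspe1 (ENSMUSG00000073676.4, mm10 chr1:55088132-55091307, plus strand), which encodes its lid Hsp10, was at 826, 859, 884 and 871 TPM. Hspd1 was higher in every library, by 1.54, 1.45, 1.47 and 1.45 on the log2(TPM + 1) scale, a 2.79-fold ratio. The deposited spans of the pair overlap on opposite strands, and the counting used strand. Other genes, chiefly the pseudogene Hspd1-ps3, share 42.1% of the words of Hspd1, so its level and the ratio are uncertain. For Hspe1 the share with other genes was 22.8%. The difference was larger, at 1.89 (log2), with the length of unshared words. It was smaller, at 0.68, from 1700 against 1064 TPM, with the length of 1 transcript per gene in place of all merged exons.

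Other mitochondrial folding and quality control genes were all above 1 TPM, 6 of 6 listed, beside 45.9% of all protein-coding genes (edgeR). Clpp, the peptidase of a matrix protease, was the highest at 297.7, 301.1, 300.1 and 309.7 TPM. Trap1, the mitochondrial Hsp90, was at 284 ± 4.93 TPM (SD, n = 4), and Lonp1, another matrix protease, at 224 ± 5.33. Clpb, a disaggregase, was lowest at 19.96, 19.92, 19.14 and 21.64 TPM. Grpel1, the exchange factor of Hspa9, was at 107 ± 2.30 TPM and its paralog Grpel2 at 29.5 ± 2.04.

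The Hsp110 genes, which act as exchange factors for Hsp70, were led by Hspa4 at 403, 396, 417 and 402 TPM. Hsph1 followed, and Hspa4l was lowest at 15.4, 14.4, 16.4 and 16.0 TPM. Their ranges did not overlap. Hspa4 exceeded Hspa4l by 4.61 ± 0.05 (log2, SD, n = 4), a 25.98-fold ratio. Hspa4 exceeded Hsph1 by 0.72, 0.82, 0.76 and 0.75, and this direction depends on the gene length. With the length of 1 transcript per gene, Hsph1 was the higher, at 358 against 315 TPM. The other listed Hsp70 co-factors were above 1 TPM as well, 13 of 13, beside 45.9% of all protein-coding genes (edgeR). They ran from Bag1, an exchange factor, at 327.7, 338.2, 329.5 and 339.6 TPM to Bag3, which links Hsp70 to autophagy, at 7.95, 7.28, 8.10 and 7.21 TPM.

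Small heat shock proteins, which hold unfolded proteins without ATP, were the class with the lowest sum after the further Cct genes, at 16.5 ± 0.432 TPM (SD, n = 4). Of the 8 genes, 2 were called above 1 TPM and 6 below, and 5 of those had no count (Hspb1, Hspb2, Hspb3, Hspb8 and Hspb9). The shares over all protein-coding genes were 45.9% above and 51.5% below (edgeR). Hspb11, named in the family although it encodes a subunit of the intraflagellar transport complex, made up 74.6% of the sum, at 12.0, 12.2, 12.9 and 12.2 TPM. Hspb6 was at 3.54, 4.51, 2.80 and 3.58 TPM. Hspb7, best known from heart muscle, was at 0.593, 0.437, 0.694 and 0.645 TPM (adjusted p = 0.0146, edgeR), a call that DESeq2 did not make (adjusted p = 0.502). Outside the small heat shock class, 59 of 73 members were above 1 TPM and 5 had no count. Over all 10 members with no count, 3 counts over the 4 libraries would equal 0.0190 to 0.0962 TPM by full exon length.

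The J-domain genes summed to 512 ± 7.64 TPM for Dnaja, 386 ± 5.20 for Dnajb and 1768 ± 18.5 for Dnajc (SD, n = 4). All 4 Dnaja genes, 11 of 13 Dnajb genes and 23 of 28 Dnajc genes were called above 1 TPM by edgeR. The share over all protein-coding genes was 45.9%. DESeq2 called 4, 8 and 23 of them above, beside 67.9% of all genes that it tested. Dnaja2, a cytosolic partner of Hspa8, was at 352, 341, 353 and 339 TPM and made up 67.6% of its class. Dnaja3, the mitochondrial partner of Hspa9, was at 101.4, 108.0, 101.9 and 99.97 TPM. Dnaja1 was below Dnaja2 in every library, by 2.60 to 2.69 on the log2(TPM + 1) scale. Dnaja1 minus Dnaja2 was -1.33 with the length of 1 transcript per gene. Dnaja4 was the lowest of the class at 9.22, 10.6, 6.67 and 7.14 TPM, with 42.7% of its words shared with Wdr61.

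Among Dnajb genes, Dnajb11 of the ER was the highest, followed by Dnajb1 and then by Dnajb12, an ER membrane protein, at 36.2, 43.1, 39.1 and 38.3 TPM. Dnajb6, a suppressor of aggregation, was at 21.7, 22.1, 22.4 and 20.9 TPM, at -2.01 ± 0.09 relative to Dnajb1 (log2, SD, n = 4) and at -1.08 with the length of 1 transcript per gene. Dnaja1 was below Dnajb1 by 0.67 to 0.77 in every library, but above it with the length of 1 transcript per gene, at 90.6 against 63.0 TPM. The lower end of the class held Dnajb3 at 2.50, 0.822, 3.02 and 2.22 TPM, Dnajb13 at 2.03 ± 0.420 and Dnajb14 at 1.33 ± 0.161 (SD, n = 4). These 3 were called above 1 TPM by edgeR (adjusted p = 1.46e-06, 9.51e-10 and 8.75e-07) and not by DESeq2. Dnajb7 and Dnajb8 had no count.

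The highest member of the Dnajc class held 16.3% of the class sum. Dnajc9, a histone chaperone, was at 288, 277, 280 and 308 TPM, and Dnajc15, a protein of the mitochondrial inner membrane, at 262, 277, 253 and 284. The ranges of these 2 genes overlapped. Dnajc8, found with splicing factors, was at 186, 193, 202 and 200 TPM. Dnajc2, which works on the ribosome with Hspa14, was at 165 ± 5.49 TPM (SD, n = 4), and Dnajc7, which binds both Hsp70 and Hsp90, at 155 ± 4.10. Dnajc5, the cysteine string protein, was at 92.3 ± 3.51 TPM. Its paralogs Dnajc5b and Dnajc5g had no count. Of the 5 members called below 1 TPM, Dnajc6, the neuronal auxilin, was at 0.611, 1.17, 0.520 and 0.395 TPM, Dnajc28 at 0.532 ± 0.212 (SD, n = 4), and Dnajc22 at 0.111 TPM in replicate 4 only. DESeq2 made none of these 3 calls (adjusted p = 0.595, 0.443 and 0.0506), and against 0.5 TPM edgeR no longer called Dnajc6 or Dnajc28 below.

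The CCT ring was high in every subunit, with a summed level of 7143 ± 80.5 TPM over 8 genes (SD, n = 4). Its 7 member genes were all above 1 TPM, beside 45.9% of all protein-coding genes (edgeR). Cct2 was at 1543, 1560, 1580 and 1592 TPM, Cct8 at 1203, 1158, 1204 and 1184, and Cct5 at 1129, 1131, 1141 and 1140. Cct6a was at 963, 914, 940 and 940 TPM. These 4 genes kept this order in all 4 libraries without overlap. Tcp1, the alpha subunit, was at 678, 641, 663 and 681 TPM and Cct4 at 683, 654, 650 and 662. The ranges of these 2 genes overlapped, and their order changed between libraries. Cct3 was at 529, 501, 504 and 502 TPM and Cct7 at 490, 471, 465 and 475, the lowest in each library.

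The ratio of the highest to the lowest subunit was 3.15, 3.31, 3.39 and 3.35 in replicates 1 to 4, a mean of 3.30 ± 0.106 (SD, n = 4). This ratio depends on the lengths of the gene models. The merged exon length of Cct7 is 6778 bases and that of Cct3 6370 bases, against 2441 and 1977 for 1 coding transcript of each. For Cct2 the lengths are 2557 and 1959 bases. With the length of 1 transcript per gene, the ratio was 1.83 ± 0.0587, the subunits ran from 728 TPM (Cct4) to 1331 TPM (Cct2), and Cct3 ranked behind Cct2 and Cct5 in all 4 libraries. Cct2 was the highest under both lengths.

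**Figure D3:**
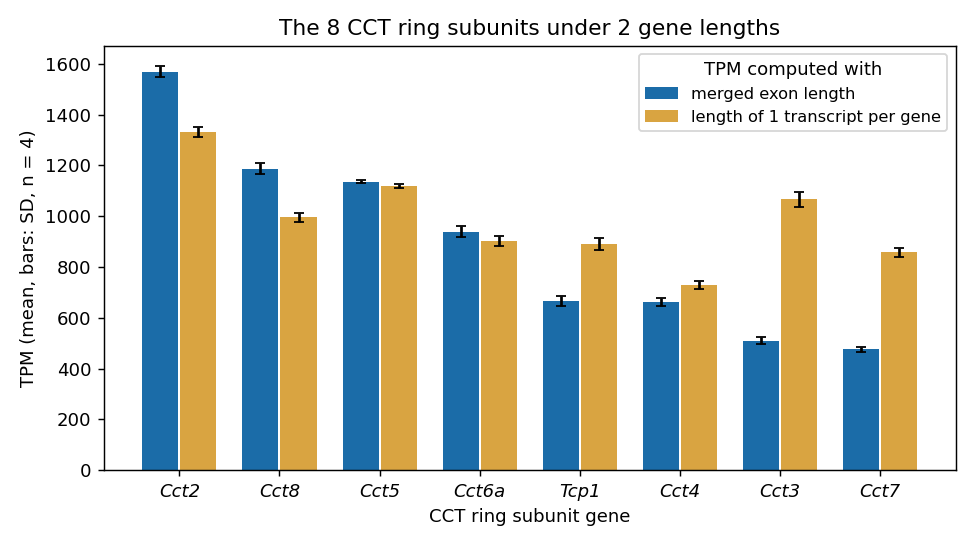
Mean TPM of the 8 CCT ring subunits, with error bars of 1 SD over 4 libraries, computed from the merged exon length (blue) and from the length of 1 transcript per gene (yellow). The subunits span a 3.30-fold range in blue and a 1.83-fold range in yellow, and Cct3 and Cct7 change the most.

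Cct5 exceeded Tcp1 by 0.74, 0.82, 0.78 and 0.74 on the log2(TPM + 1) scale, a 1.71-fold ratio. This difference was 0.55 (log2) with the length of unshared words. With the length of 1 transcript per gene it was 0.33, from 1119 against 890 TPM. Cct6b, the testis paralog of Cct6a, was at 0.132, 0, 0.205 and 0.477 TPM, below Cct6a by 9.62 ± 0.23 (log2, SD, n = 4), and Cct8l1 was at 0.0718 ± 0.0829 TPM. Both were called below 1 TPM by edgeR and neither by DESeq2 (adjusted p = 0.266 and 0.132). The genes of prefoldin, which hands actin and tubulin to the ring, and of other CCT co-factors were above 1 TPM in 9 of 9 cases. They ran from Pfdn5 at 186, 215, 200 and 204 TPM to Txndc9 at 32.4, 32.3, 33.8 and 33.2 TPM. The actin and tubulin genes listed as clients were also all above 1 TPM, 9 of 9, from Actb at 5752, 5898, 5805 and 5551 TPM to Tubb2b at 4.87, 4.76, 5.60 and 5.47 TPM. For both lists, the share over all protein-coding genes was 45.9% (edgeR). Many tubulin genes share sequence with each other (36.9% of the words of Tubb2b), so their levels are uncertain.

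**Figure D4:**
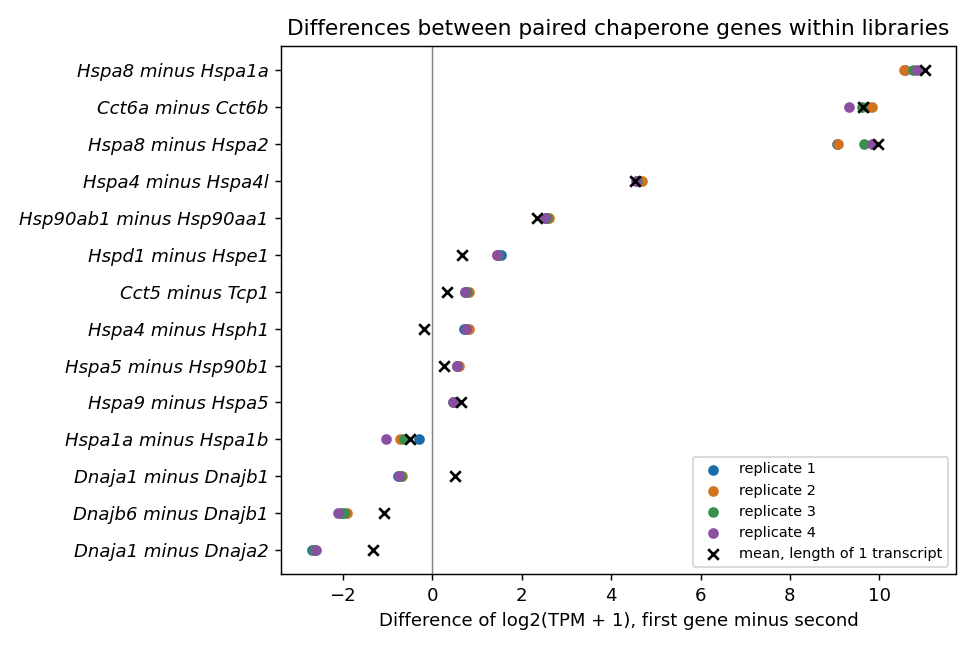
Differences of log2(TPM + 1) between 14 pairs of chaperone genes within each library (coloured points), with the mean under the length of 1 transcript per gene as a cross. The 4 points of each pair lie on 1 side of 0, and for Hspa4 minus Hsph1 and Dnaja1 minus Dnajb1 the cross lies on the other side.

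Between libraries, chaperone levels were close. Among 66 members with a mean of at least 10 counts, 1 was called as varying more than genes of its abundance (edgeR dispersion trend, Benjamini-Hochberg adjustment), beside 0.501% of 11171 protein-coding genes. At an unadjusted p under 0.05 there were 4, beside 5.28% of genes. The coefficient of variation (CV, the SD as a percent of the mean) had a median of 4.00% over the 66 members and of 5.46% over the 11171 genes. Among the 26 members with at least 100 TPM the median CV was 2.76%, against 3.33% for 2045 such genes. Cct5 had the smallest, at 0.535%, and Dnajc3 was at 0.706%.

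The varying member was Hspa12a (ENSMUSG00000025092.6, mm10 chr19:58795751-58860984, minus strand), a distant Hsp70 relative. It had 34, 4, 6 and 4 counts in replicates 1 to 4, so replicate 1 stood alone (CV 106%, adjusted p = 0.0107, edgeR). The call was lost without replicate 1 and also without replicate 4. The other members at an unadjusted p under 0.05 were Dnaja4, Dnajc6 and Hspa2, with adjusted p of 0.515, 0.554 and 0.597 (edgeR). With 1 common dispersion for all genes, these 3 were called too, beside 2.23% of genes. Dnaja4, Dnajc6 and Hspa2 were higher in both replicates 1 and 2 than in either of replicates 3 and 4. This is the same division of libraries as in Ddx3y and Xist. Hspa12a did not clearly share it, because replicates 2 and 3 were at 0.121 and 0.101 TPM from 4 and 6 counts. All these members were picked for their spread over the same libraries. The part of the sex chromosome difference in these values was not tested.

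**Figure D5:**
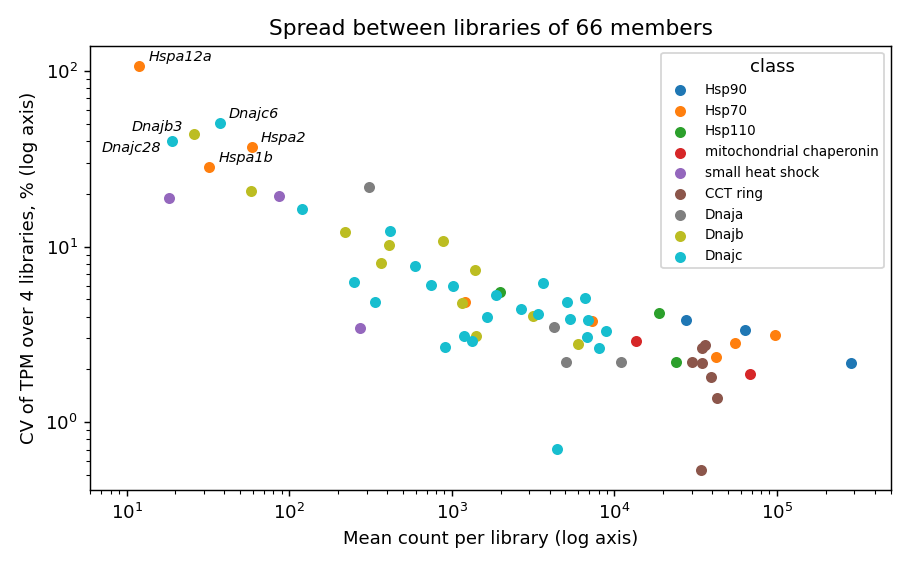
CV of TPM over the 4 libraries against the mean count per library for the 66 members with a mean of at least 10 counts, both on log axes, coloured by class. CV falls as counts rise: the 6 labelled members, each above 25%, have few counts, and the CCT ring members lie at or below 2.74%.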

How the data were processed

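Raw counts per gene were deposited. Per the file headers, read pairs were counted by featureCounts 1.4.6-p4 against exons of GENCODE release 13 for mouse (mm10), with strand used and both mates required to map. Multi-mapping reads were not counted. For the aligner, a version is not given in the sources. Each deposited table also gives merged exon lengths. Symbols, gene types and 1-transcript lengths came from GENCODE release 21, by Ensembl identifier (99.6% of genes matched). TPM was computed from counts and exon lengths over all genes.

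Levels of all protein-coding genes were tested against 1 TPM with edgeR 4.0.16 (R 4.3.3) and, as an alternative, DESeq2 1.42.0. Variation was tested on TMM-scaled counts with a mean of at least 10. Pairs were compared by an exact sign-flip test on log2(TPM + 1), that is, with a pseudocount of 1. A level is called uncertain where at least 25% of a gene's 50-base words also occur in another gene's transcripts on either strand. Scripts were tested on simulated data. The members, lists and tests were chosen with earlier results of these data known, and the 1-transcript length was added after seeing the values. Values per library are given for the 3 highest and the lowest member of each class, the genes of each pair, the CCT ring, the inducible members, those called as varying, and the highest and lowest gene of each pathway list. Other genes were named for their role after their values were seen. Protein sequences were not used here.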

Additional observations from a re-analysis of the deposited data

Results flagged for a closer look

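In 7 of 97 sets of 4 values, the gap of 1 library to its nearest neighbour, as a share of the whole range, passed the critical value of Dixon's test, and chance alone flags about 1 set in 20. Replicate 1 stood apart for Cct3, at 529 TPM against 501 to 504 in the others, for Hspa12a, at 0.487 TPM against 0.0479 to 0.121, and for Hspa1l, at 0.0664 TPM against 0 in the others. Replicate 3 stood apart for Dnajc21, at 70.1 TPM against 64.3 to 64.9, and for Dnajc19, at 25.7 TPM against 22.6 to 23.1. Replicate 2 was low for Dnajc4, at 19.5 TPM against 21.9 to 22.4, and replicate 4 was high for Dnajc22, at 0.111 TPM against 0. Among these 7, Hspa12a was called as varying between libraries, and Hspa1l and Dnajc22 had too few counts to be tested for variation. Hspa1l and Dnajc22 had counts in 1 library only, so their gap equals the whole range whatever the value. The rate of 1 in 20 does not apply to such sets.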

How the results depend on the processing

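With the length of 1 transcript per gene, added after seeing the data, Hspa4 minus Hsph1 turned to -0.19 and Dnaja1 minus Dnajb1 to 0.52 (log2). The ratio of highest to lowest CCT subunit became 1.83, and summed TPM became 26269 for all members, 8737 for Hsp90, 685 for Hsp110, 2764 for the mitochondrial chaperonin, 31.6 for small heat shock, 425, 378 and 1745 for Dnaja, Dnajb and Dnajc, and 7886 for the CCT ring. With the length of unshared words the sums were 33712 for all members, 12669 for Hsp90, 5956 for Hsp70, 5256 for the mitochondrial chaperonin, 17.4 for small heat shock, 539, 393 and 1839 for Dnaja, Dnajb and Dnajc, and 7495 for the CCT ring. With TPM over nuclear protein-coding genes they were 29818, 11533, 4782 (Hsp70), 694 (Hsp110), 3436, 17.4, 540, 407, 1864 and 7533. Each of these follows from the length or denominator used.

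Members below 1 TPM fell from 19 to 1 with DESeq2, which gave no p to the 10 without counts, and to 4 where the mean count had to reach 10. Against 2 TPM, Dnajb14 was called below (adjusted p = 6.38e-12, edgeR). Members called as varying numbered 4 with a common dispersion, 0 at a minimum mean of 1 or 50 counts, and 0 to 1 when a replicate was left out. Hspa12a, with a mean of 12 counts, was not tested at the minimum of 50, so its loss there was fixed in advance. The same 61 members were above 1 TPM without any 1 replicate, and pair differences kept their sign. No paired analysis was possible because the design has 1 group. Depth limits the members with no count, where 3 counts over the 4 libraries equal at most 0.0962 TPM by full exon length. Shared words limit them too, because multi-mapping reads were not counted. For Hspb1 (50.1% shared) and Dnajb8 (35.1%) the limits from full exon length are therefore too low.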
